A study of Drosophila melanogaster with 6 samples.

Results

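The mitochondrial ribosomal proteins were taken as the genes of the count table whose FlyBase symbol begins with mRpL or mRpS. They made up 72 of the 17492 genes listed, 47 with a large-subunit symbol (mRpL) and 25 with a small-subunit symbol (mRpS), and 71 had enough counts to be tested. Large-subunit and small-subunit genes are told apart below by this symbol alone. RNA was sequenced from the heads of *Drosophila melanogaster* at 30d and at 3d of adult age, with 3 samples of each age. Flies of both ages came from the same line, 5905, a *w1118* stock that carries a mutation of the *white* eye colour gene, and no further treatment or allele was given in the labels. The study's methods describe male flies aged in vials at 25 °C. The labels do not say how many flies gave each RNA sample, or whether the samples of an age came from separate cultures, so the p-values measure the spread between these samples, which may be technical. The gene *mRpS5* was not analysed here.

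Mitochondria carry ribosomes of their own, which translate only the few messenger RNAs of the mitochondrial genome, most of them for subunits of the respiratory chain. Both ribosomal RNAs of this ribosome come from the mitochondrial genome, whereas its proteins are encoded in the nucleus, made in the cytosol and imported. Many of these proteins descend from bacterial ribosomal proteins and keep their place on the ribosome. Others are particular to mitochondria and surround a core with less RNA than that of bacteria. The question asked of the count table was whether the mRNAs of these proteins differed between heads of 30d and 3d flies.

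Counts on genes ran from 3176380 to 3741860 per sample. The levels below are CPM, the reads of a gene per 1000000 reads of its library after edgeR's TMM scaling. Over all 8773 genes tested with edgeR's quasi-likelihood test, 1259 were higher and 1410 lower at 30d at an adjusted p under 0.05, and scaling by library size alone gave 1715 higher and 1053 lower. Markers of the cell types of the head moved between the ages. Of the muscle markers, 11 of 12 tested fell, led by *Act88F* (log2 fold change -1.45) and *Mlc2* (-1.36), and their summed level was 3133 to 3268 CPM at 30d and 4865 to 7158 CPM at 3d, with the highest value in 3d replicate 1. The neuronal markers fell in 5 of 6 genes, led by *Syt1* (-0.84) and *para* (-0.77), with sums of 3203 to 3459 CPM at 30d and 4418 to 5474 CPM at 3d. Photoreceptor markers fell in 2 of 7 genes, *inaD* (-0.65) and *ninaC* (-0.50). The other 5 were not called by edgeR's test, and of these *ninaE* (0.31) and *Arr2* (0.17) lay above 0, while DESeq2 called 1 of the 7 higher. The photoreceptor sums were 52972 to 64745 CPM at 30d and 47935 to 56126 CPM at 3d. *ninaE* was the most abundant of the 7, with means of 31265 CPM at 30d and 25142 CPM at 3d. Glial markers fell in 3 of 5 genes, led by *nrv2* (-0.93) and *Eaat1* (-0.57), with sums of 1113 to 1163 CPM at 30d and 1567 to 1884 CPM at 3d. The other 2 glial markers, *repo* (0.17) and *moody* (0.13), lay above 0 and were not called. Of the fat body markers, 1 of 4 tested rose, *Yp3* (0.42), with sums of 7681 to 9533 CPM at 30d and 7050 to 7561 CPM at 3d. The other 3 tested, *Lsp2* (-0.78), *apolpp* (0.28) and *FASN1* (0.23), were not called. In these bulk samples, fewer cells of a type and less RNA per cell cannot be told apart, and the part of these markers in the results below was not tested.

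The mRNAs of the mitochondrial ribosomal proteins were short. Their exons covered a median of 783 bases (327 to 2078), against 2248 bases for all genes tested. Among the tested members the mean level over the 6 samples ran from 5.02 CPM for *mRpL34* to 52.6 CPM for *mRpL28*, with a median of 14.9 CPM. Per kb of exon the median level of the 72 genes was 18.8 CPM, against 1.76 CPM over all genes of the count table, tested or not. The 3 highest members were *mRpL28* (45.0 CPM per kb), *mRpS9* (37.4) and *mRpL55* (34.4). The 3 lowest were *mRpL53*, which had no count in any sample, *mRpL21* (7.62) and *mRpS24* (9.32). A member held a median of 51.2 counts per sample, so that single members were measured with limited precision: their standard errors on the log2 scale ran from 0.10 to 0.32, with a median of 0.17.

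The summed level of all members was 1195, 1189 and 1172 CPM in the 30d samples and 1255, 1330 and 1212 CPM in the 3d samples, so that every 30d sample lay below every 3d sample, by a narrow margin. The sum over the large-subunit genes was 747 to 760 CPM at 30d and 776 to 839 CPM at 3d. For the small-subunit genes it was 425 to 446 CPM at 30d and 436 to 490 CPM at 3d, and the ages overlapped. Without the 8 members that share over 20% of their exon bases with other genes, the sum was 1071 to 1093 CPM at 30d and 1083 to 1192 CPM at 3d, and the ages overlapped as well. As a share of all counts, with no scaling, the members took 0.118 to 0.124% at 30d and 0.118 to 0.130% at 3d.

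Few members were called between the ages. None rose and 3 fell at an adjusted p under 0.05, *mRpS9*, *mRpL55* and *mRpS11*, so that 68 of the 71 tested were not called. Of all genes tested, 14.4% rose and 16.1% fell. DESeq2's Wald test also called 0 members higher, and so did limma-voom. At an unadjusted p under 0.05 edgeR's test gave 6 members, 1 higher (*mRpS7*) and 5 lower (the 3 called with *mRpL18* and *mRpS25*), and over all genes tested this share was 40.8%. Among the 1187 genes tested whose mean CPM lay within the quartiles of the members, 12.5% rose and 6.07% fell.

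The log2 fold changes of the 71 members lay between -0.75 and 0.50 with a median of -0.08, against a median of 0.02 over all genes tested, and 27 were above 0 and 44 below. Their quartiles were -0.23 and 0.04. This split depended on the scaling: with library size alone 35 members were above 0 and 36 below, at a median of -0.0040, and with a trend with exon length removed 15 were above and 56 below, at a median of -0.18. With TMM scaling, the 1187 genes tested whose mean CPM lay within the members' quartiles had a median of 0.095, with 737 above 0 and 450 below. The 848 genes tested whose exon bases lay within the members' quartiles had a median of 0.092, with 504 above 0 and 344 below. A difference under 0.2 in either direction was found for 42 members, and 4 differed by at least 0.5. None reached a 2-fold difference. The 95% interval lay within -1 and 1 for 68 of the 71 and within -0.5 and 0.5 for 31, and it spanned 0 for 65. The half-width of the interval ran from 0.22 to 0.69, with a median of 0.37.

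**Figure D1:**
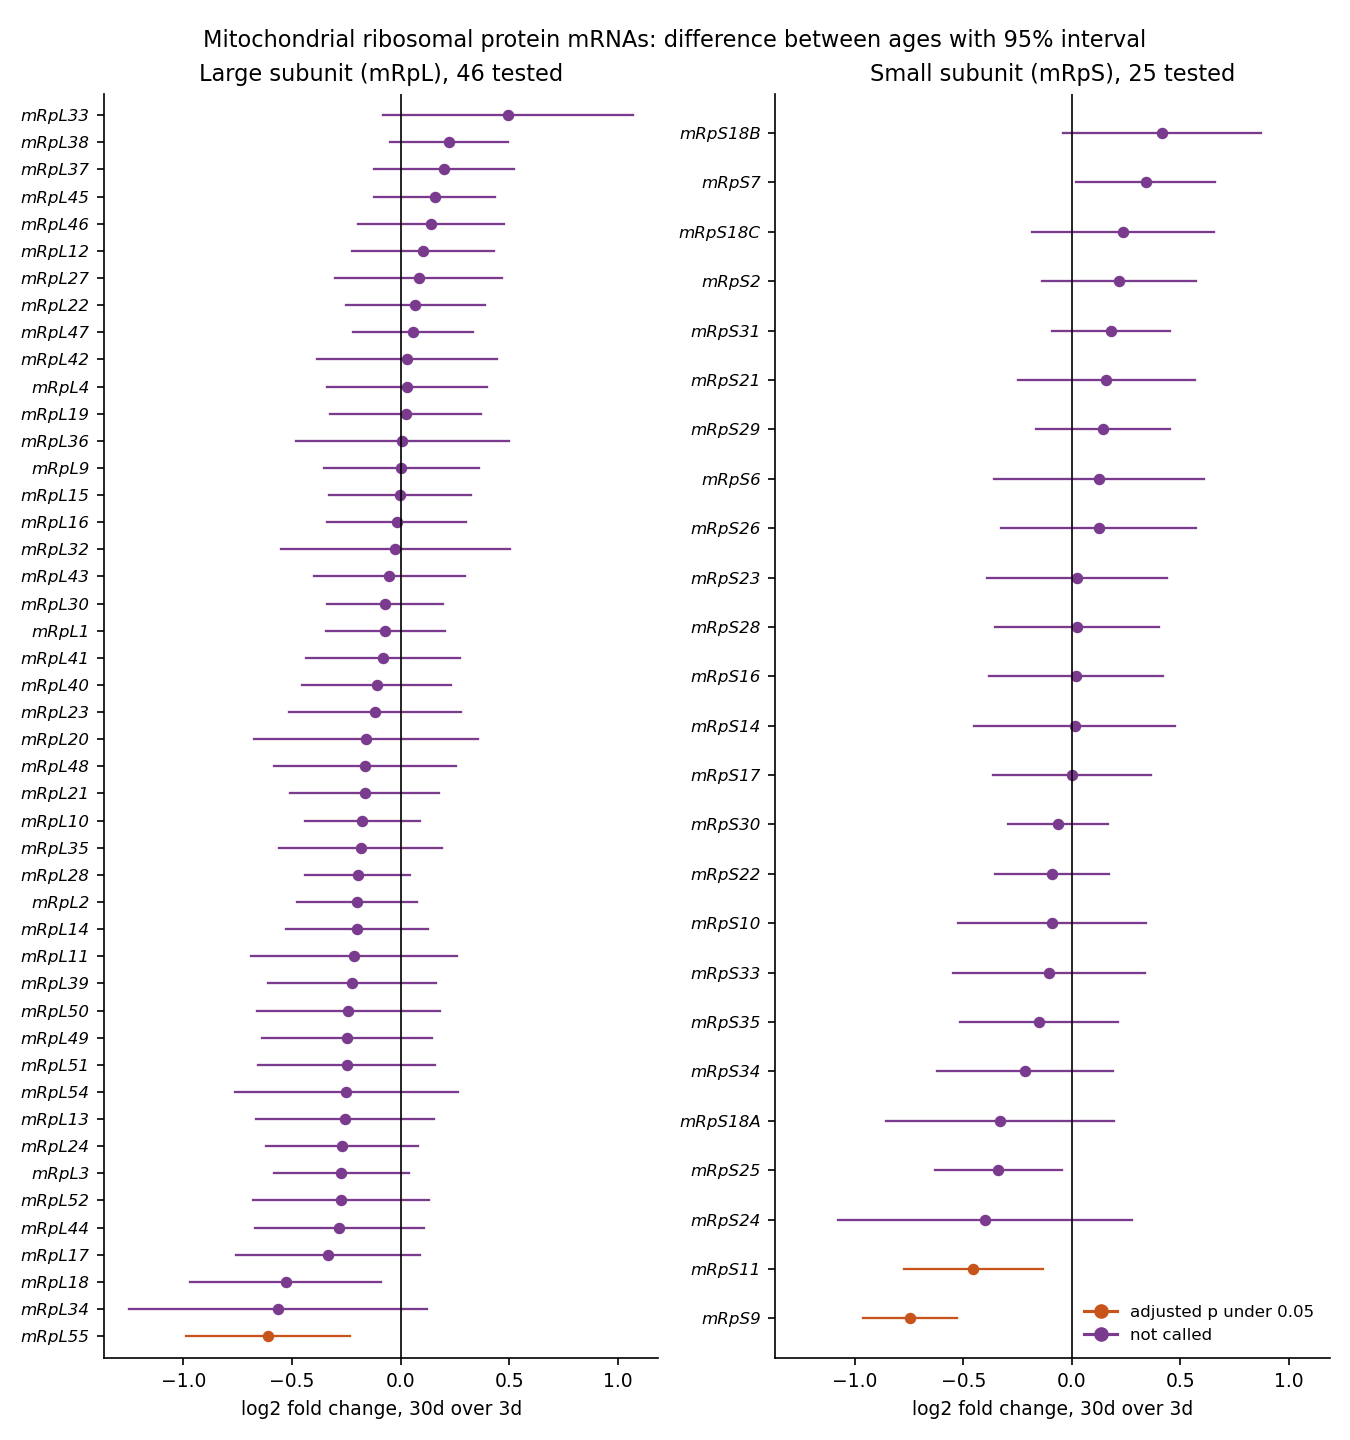
Log2 fold change of each tested mitochondrial ribosomal protein mRNA, 30d over 3d, with its 95% interval, for the large-subunit genes (left) and the small-subunit genes (right), sorted by size. Orange marks the 3 members with an adjusted p under 0.05, *mRpL55*, *mRpS11* and *mRpS9*, all lower at 30d, and 65 of the 71 intervals cross 0.

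*mRpS9* showed the largest fall of all members. Its protein is the counterpart of bacterial S9, whose tail reaches the transfer RNA in the peptidyl site of the small subunit. The gene lies on the minus strand of chromosome arm 3R at chr3R:7889277-7902667 (dm6). It had 38.1, 34.2 and 36.0 CPM at 30d, against 57.2, 64.7 and 59.9 CPM at 3d. The ages lay far apart, and each age was tight, with means of 36.1 ± 1.98 CPM at 30d and 60.6 ± 3.84 CPM at 3d (SD, n = 3 each). The log2 fold change was -0.75 (SE 0.10, edgeR adjusted p = 0.000183), which is 0.596 of the 3d level. The call was made in all 6 fits that left out a sample, with log2 fold changes of -0.79 to -0.70, and by DESeq2's test. A share of 25.1% of its exon bases, 325 bases, lies on exons of *ArgRS-m*, the mitochondrial arginyl-tRNA synthetase, on the opposite strand. The reads were counted without regard to strand, and those lying wholly on the shared bases were counted for neither gene. *ArgRS-m* itself had 9.53, 13.9 and 9.44 CPM at 30d, against 15.8, 15.8 and 15.1 CPM at 3d, and was not called (log2 fold change -0.50, SE 0.18, edgeR adjusted p = 0.052).

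*mRpL55* encodes a protein of the large subunit found in animals, with no bacterial counterpart. The gene lies on the minus strand at chr3R:19094394-19094905 and shares no exon bases with another gene. Its level was 13.6, 12.9 and 10.6 CPM at 30d, against 22.0, 15.6 and 19.6 CPM at 3d. All 30d samples lay below all 3d samples, and the gap was narrow. The log2 fold change was -0.61 (SE 0.17, edgeR adjusted p = 0.018), from 37 to 50 counts per 30d sample and 57 to 67 counts per 3d sample. The call ended when 30d replicate 3 was left out (-0.51, edgeR adjusted p = 0.072), and likewise without 3d replicate 1 (-0.50, adjusted p = 0.067) or 3d replicate 3 (-0.59, adjusted p = 0.056). DESeq2's test did not make it (-0.63, adjusted p = 0.095).

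*mRpS11*, the counterpart of bacterial S11 on the platform of the small subunit, lies on the plus strand at chr3R:17072732-17073795 and also shares no exon bases with another gene. It had 16.1, 15.6 and 15.4 CPM at 30d, against 23.7, 22.9 and 18.1 CPM at 3d. The 30d samples were nearly equal, and 3d replicate 3 was the nearest to them. The log2 fold change was -0.45 (SE 0.15, edgeR adjusted p = 0.033). This call was kept in only 1 of the 6 fits that left out a sample, the one without 3d replicate 3 (-0.57, adjusted p = 0.018). Leaving out each of the others gave adjusted p-values of 0.056 (30d replicate 1), 0.094 (30d replicate 2), 0.084 (30d replicate 3), 0.10 (3d replicate 1) and 0.11 (3d replicate 2). It was also lost in DESeq2's test (adjusted p = 0.20) and with library size alone (adjusted p = 0.070).

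**Figure D2:**
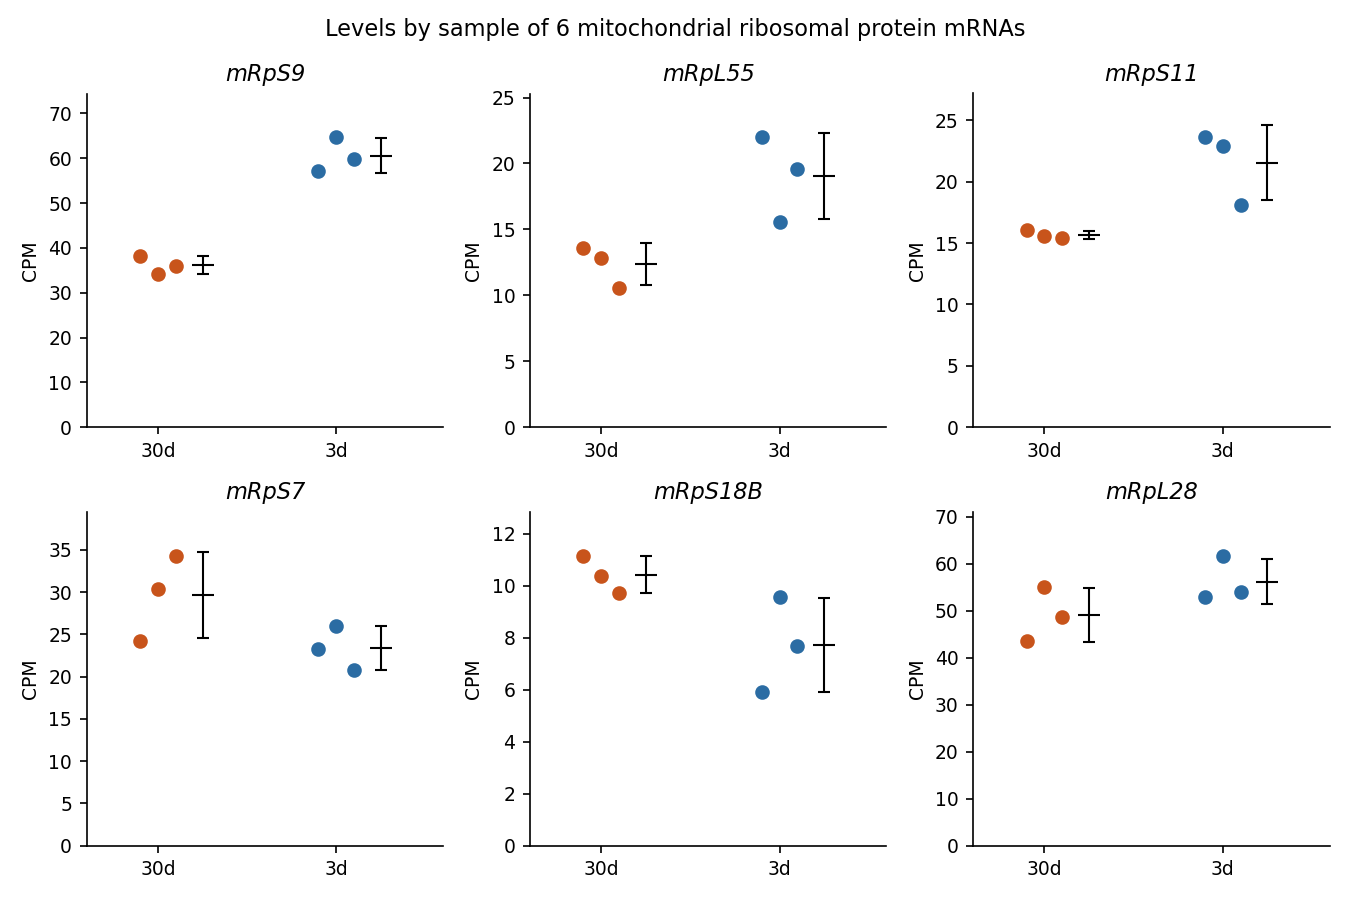
CPM in each sample (points) with the mean and SD of each age (bars, n = 3), 30d in orange and 3d in blue, for 6 mitochondrial ribosomal protein mRNAs. The 30d samples of *mRpS9* sit between 34.2 and 38.1 CPM and the 3d samples between 57.2 and 64.7 CPM, whereas for *mRpS7* and *mRpL28* the ages overlap.

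Other members with differences of like size were not called, 3 of which follow, and *mRpS24* is described with the overlapping genes. *mRpL18*, whose bacterial counterpart binds the 5S ribosomal RNA, had 11.99, 8.75 and 8.87 CPM at 30d, against 12.2, 12.8 and 17.8 CPM at 3d (log2 fold change -0.53, SE 0.20, edgeR adjusted p = 0.066). It was called lower without 30d replicate 1 (-0.69, adjusted p = 0.036). *mRpS25*, a small-subunit protein particular to mitochondria, had 17.4, 18.3 and 17.2 CPM at 30d, against 24.0, 23.2 and 19.9 CPM at 3d (-0.34, SE 0.14, adjusted p = 0.077). The ages did not overlap for either gene. *mRpL34*, the least abundant member tested, had 4.09, 3.56 and 4.58 CPM at 30d, against 5.58, 8.47 and 3.85 CPM at 3d, and the ages overlapped (-0.56, SE 0.32, adjusted p = 0.20).

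On the other side, *mRpS7*, whose bacterial counterpart organizes the head of the small subunit, had 24.2, 30.4 and 34.3 CPM at 30d, against 23.3, 25.9 and 20.7 CPM at 3d. The ages overlapped, and the difference of 0.34 on the log2 scale was not called (SE 0.15, adjusted p = 0.10). Without 30d replicate 1 it was called higher (0.47, adjusted p = 0.024), as it was with library size alone (0.42, adjusted p = 0.043). *mRpL33* had the largest positive log2 fold change, 0.50, from 9.53, 12.3 and 6.58 CPM at 30d, against 6.24, 8.47 and 5.33 CPM at 3d (SE 0.27, adjusted p = 0.18). Outside the naming rule, these 5 members were picked with their values in view.

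Without a test, 2 members had every 30d sample above every 3d sample, *mRpS18B* and *mRpL38*, and 8 had every 30d sample below, *mRpS9*, *mRpL55*, *mRpL18*, *mRpS11*, *mRpS25*, *mRpL17*, *mRpL2* and *mRpL10*. Over all genes tested these shares were 22.3% above and 22.5% below. Among the 1187 genes tested whose mean CPM lay within the members' quartiles, 263 had every 30d sample above and 134 had every 30d sample below. The ages overlapped for the other 61 members. The highest of the 6 samples was a 30d sample for 24 members and a 3d sample for 47. The coefficient of variation within an age had a median over the members of 12.7% at 30d and 15.2% at 3d, and it was larger at 30d for 33 members and at 3d for 38.

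The 3 paralogs of *mRpS18* are related to a single bacterial protein, S18, and in mammals their products sit at separate places of the mitochondrial ribosome. *mRpS18A* had 9.26, 9.85 and 5.44 CPM at 30d, against 11.5, 8.19 and 11.6 CPM at 3d (log2 fold change -0.33, SE 0.24, edgeR adjusted p = 0.33). *mRpS18B* had 11.2, 10.4 and 9.73 CPM at 30d, against 5.91, 9.56 and 7.71 CPM at 3d (0.42, SE 0.21, adjusted p = 0.16). *mRpS18C* had 10.6, 9.03 and 9.73 CPM at 30d, against 7.23, 9.29 and 8.30 CPM at 3d (0.23, SE 0.19, adjusted p = 0.41). Only for *mRpS18B* did the ages not overlap among these paralogs, and none was called.

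Members with known further roles were not called either. *mRpL12* forms the stalk of the large subunit that factors bind, and in flies it is needed for growth driven by Cyclin D and Cdk4. It had 23.2, 24.9 and 23.2 CPM at 30d, against 18.4, 27.0 and 20.4 CPM at 3d (log2 fold change 0.10, SE 0.15, edgeR adjusted p = 0.65). *mRpL10*, which anchors this stalk, had 20.7, 24.3 and 23.5 CPM at 30d, against 25.9, 25.1 and 26.4 CPM at 3d, with no overlap between the ages and a small difference (-0.18, SE 0.12, adjusted p = 0.30). *mRpS29* is the counterpart of human DAP3, a GTP-binding protein first known for a role in cell death. Its level was 23.7, 28.2 and 24.9 CPM at 30d, against 21.7, 27.3 and 20.2 CPM at 3d (0.14, SE 0.14, adjusted p = 0.48).

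*mRpL44* has a fold related to ribonuclease III, and mutations of its human counterpart cause a disease of the heart muscle. It had 17.2, 12.6 and 16.9 CPM at 30d, against 18.4, 22.7 and 15.4 CPM at 3d, and the ages overlapped (-0.28, SE 0.18, edgeR adjusted p = 0.26). *mRpS30*, named for the small subunit though its mammalian counterpart sits on the large one, was the longest member, with 2078 exon bases. Its level was 44.9, 45.1 and 40.1 CPM at 30d, against 50.3, 44.5 and 41.8 CPM at 3d (-0.07, SE 0.11, adjusted p = 0.68). *mRpL28*, the most abundant member, had 43.6, 54.97 and 48.6 CPM at 30d, against 52.9, 61.7 and 53.9 CPM at 3d. Its difference was -0.20 (SE 0.11, adjusted p = 0.21), with a 95% interval of -0.44 to 0.04, and the ages overlapped. *mRpL21*, the member of lowest tested level per kb of exon, had 11.4, 13.4 and 11.7 CPM at 30d, against 13.5, 14.5 and 13.04 CPM at 3d (-0.17, SE 0.16, adjusted p = 0.49).

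The members were described by the subunit in their symbol, by origin and by position. By symbol, *mRpS30* was counted with the small-subunit genes. The median log2 fold change was -0.14 for the 46 large-subunit genes tested, of which 1 fell, and 0.01 for the 25 small-subunit genes, of which 2 fell. The median of the large subunit was below 0 under every alternative, whereas that of the small subunit was -0.08 after removal of a trend with exon length, 0.09 with library size alone and between -0.04 and 0.02 when single samples were left out. The 44 members with a counterpart in bacteria had a median of -0.05, and 2 of them fell, *mRpS9* and *mRpS11*. The list of members particular to mitochondria left out *mRpL55*, which has no bacterial counterpart. With it, 1 of 27 tested fell by edgeR's test, *mRpL55* itself, at a median of -0.10. Among the other 26, edgeR, DESeq2 and limma-voom called 0, and 1 had an unadjusted p under 0.05 in edgeR's test, *mRpS25*. On chromosome X, which held 11 members, the median was -0.07, and on the autosomes it was -0.09 over 60. The autosomal members lay on 2L (12), 2R (12), 3L (16) and 3R (21), and all 3 that fell were on 3R. The difference between these subsets was not tested.

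Overlap with other genes touched many members, since a read lying wholly on exons of more than 1 gene is not counted for any of them under the authors' setting. In the Ensembl annotation 29 members shared no exon base with another gene, and 8 shared over 20%. *mRpL53* lies wholly, with its 829 exon bases, on exons of *CG33155* on the same strand (2R), so that none of its reads could be counted, and its 0 counts in all samples say nothing of its expression. *mRpS24*, whose mammalian counterpart corresponds to bacterial S3, shares 55.3% with *TBC1d7*. It had 6.27, 2.73 and 5.44 CPM at 30d, against 7.56, 6.83 and 4.74 CPM at 3d (log2 fold change -0.40, SE 0.31, edgeR adjusted p = 0.36).

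*mRpL17* shares 23.6% with *CG34263*, whose 258 exon bases all lie on those of *mRpL17*. None of the reads of *CG34263* could be counted, so its 0 counts say nothing of its expression. *mRpL17* had 13.6, 14.2 and 14.6 CPM at 30d, against 24.3, 14.7 and 15.1 CPM at 3d (-0.34, SE 0.20, edgeR adjusted p = 0.22). The ages did not overlap only by a small margin, and 3d replicate 1 stood far above the rest: without it the difference was -0.08. *mRpL13* (-0.26, 35.2% shared with *CG10602*), *mRpL48* (-0.16, 20.8% shared with *frtz*), *mRpS14* (0.01, 35.8% shared, mainly with *Naa15-16*) and *mRpS21* (0.16, 48.0% shared with *CG8870*) had adjusted p-values of 0.33 to 0.97. Of these partners *CG10602* (0.42), *frtz* (0.49) and *Naa15-16* (0.42) rose, and the members that overlap them were not called. The 64 members with up to 20% shared had a median of -0.07, and 2 of them fell, *mRpL55* and *mRpS11*.

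The small subunit also holds proteins with other symbols, 2 of which were looked up here. *tko*, the counterpart of bacterial S12 whose fly mutant *technical knockout* is sensitive to mechanical shock, had 19.3, 13.9 and 13.7 CPM at 30d, against 14.8, 18.6 and 16.0 CPM at 3d (log2 fold change -0.07, SE 0.17, edgeR adjusted p = 0.78). *bonsai*, the counterpart of bacterial S15, had 20.2, 18.6 and 22.9 CPM at 30d, against 20.4, 25.1 and 25.5 CPM at 3d (-0.21, SE 0.14, adjusted p = 0.29). The ages overlapped for both.

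The ribosomal RNAs of the same ribosome, by contrast, were lower at 30d. *mt:lrRNA*, of the large subunit, had 33596, 31772 and 36716 CPM at 30d, against 72618, 65496 and 62804 CPM at 3d (log2 fold change -0.98, SE 0.13, edgeR adjusted p = 0.000181). *mt:srRNA*, of the small subunit, had 87.2, 81.2 and 91.6 CPM at 30d, against 222, 244 and 229 CPM at 3d (-1.42, SE 0.08, adjusted p = 5.93e-07). The groups lay far apart for both RNAs. The libraries were made from polyadenylated RNA, and the levels of these RNAs also depend on how much of them was carried through that selection, which was not measured. Of the 13 mRNAs of the mitochondrial genome, which this ribosome translates, 1 rose, *mt:ND3* (0.26), and 2 fell, *mt:ND4L* (-0.74) and *mt:ND2* (-0.58), with a median of -0.13. These are 7.69% higher and 15.4% lower, against 14.4% and 16.1% of all genes tested. The summed level of the 13 mRNAs was 37121 to 41892 CPM at 30d and 39103 to 41561 CPM at 3d.

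**Figure D3:**
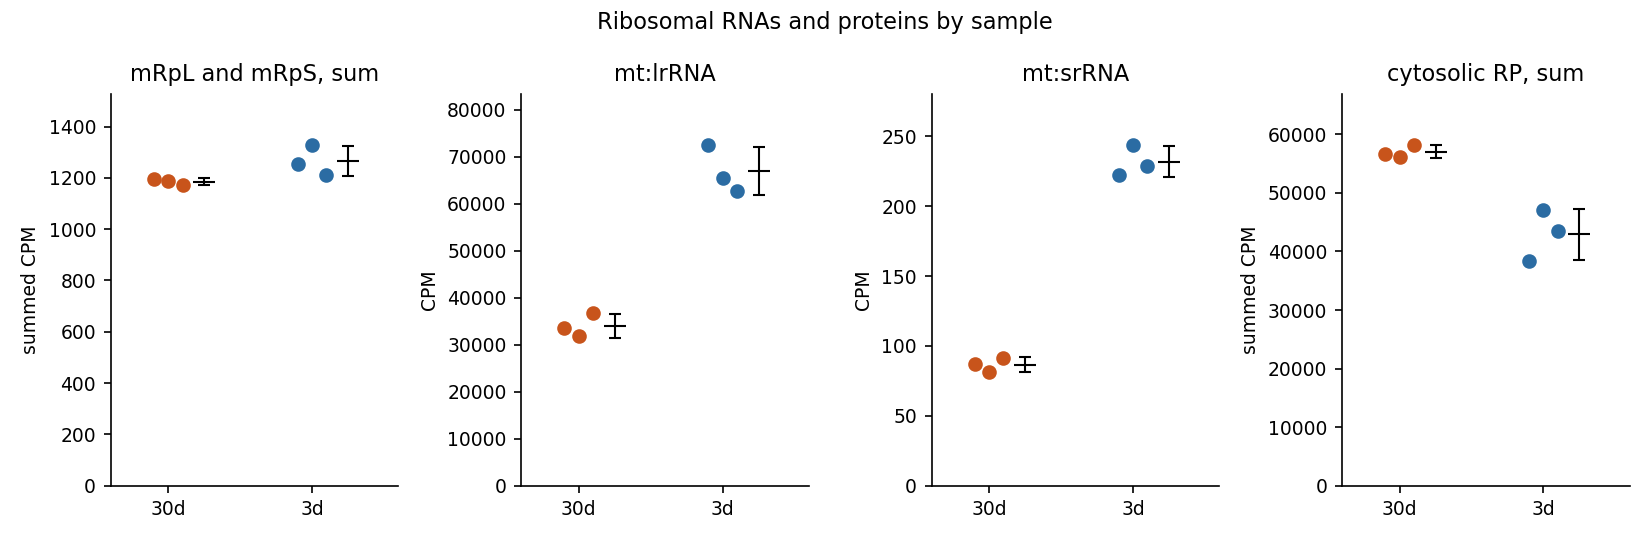
Level in each sample (points) with the mean and SD of each age (bars, n = 3), 30d in orange and 3d in blue, for the sum over the mRpL and mRpS genes, the ribosomal RNAs of mitochondria and the sum over the cytosolic ribosomal protein (RP) genes, in CPM on axes that start at 0. The members' sum is 1172 to 1195 CPM at 30d and 1212 to 1330 CPM at 3d, whereas both ribosomal RNAs are lower and the cytosolic sum is higher at 30d.

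Of the 9 translation factors that work on the mitochondrial ribosome 1 fell, which is 11.1%, against 16.1% of all genes tested. It was *mEFG1*, the elongation factor that moves the ribosome along the mRNA, and the median log2 fold change of the factors was -0.17. *mEFG1* had 17.7, 19.97 and 19.7 CPM at 30d, against 29.6, 24.9 and 33.2 CPM at 3d, with no overlap (-0.61, SE 0.14, edgeR adjusted p = 0.00596). The initiation factor *mIF3* (-0.53, adjusted p = 0.072) and the elongation factor *mEFTu1* (-0.23, adjusted p = 0.082) were below in every 30d sample without being called, and both were called lower with the length trend removed (-0.62 and -0.31). The other factors, *mIF2* (-0.14), *mEFTu2* (-0.17), *mEFTs* (-0.09), the recycling factors *mRRF1* (-0.21) and *mRRF2* (0.03), and the release factor *mRF1* (-0.16), had adjusted p-values of 0.35 to 0.93.

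Among the 15 mitochondrial aminoacyl-tRNA synthetases edgeR and DESeq2 called 0 and limma-voom called 1 lower, with a median of -0.12, and 3 had an unadjusted p under 0.05 in edgeR's test, *ArgRS-m* (-0.50), *MetRS-m* (-0.38) and *AsnRS-m* (0.74). Of the genes for transcription, RNA handling and upkeep of the mitochondrial genome, 11 of 15 were tested, and edgeR, DESeq2 and limma-voom called 0 of them, as did edgeR's test at an unadjusted p under 0.05. Their median was 0.04, and -0.05 with the length trend removed. The mitochondrial RNA polymerase *PolrMT* had 42.8, 44.0 and 40.1 CPM at 30d, against 34.2, 37.7 and 37.6 CPM at 3d, with no overlap (0.21, SE 0.10, adjusted p = 0.13), and was called higher with the length trend removed (0.30). *TFAM*, which packs the mitochondrial genome, had a log2 fold change of -0.07. The transcription and termination factors *mtTFB2* (-0.21), *mTTF* (-0.06), *mTerf3* (0.04) and *mTerf5* (-0.10), the RNA-binding proteins *bsf* (0.08) and *SLIRP2* (-0.03), the poly(A) polymerase *MTPAP* (0.25), the DNA polymerase *PolG1* (0.25) and *mtDNA-helicase* (0.87, SE 0.41) had adjusted p-values of 0.13 to 0.95, and *mtDNA-helicase* was called higher only without 3d replicate 2 (1.43, adjusted p = 0.046). Of the 7 mitochondrial chaperones and proteases the same tools called 0, and 2 were higher at an unadjusted p under 0.05, *Hsc70-5* (0.19) and *ClpP* (0.26).

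The comparison with the cytosolic ribosome and with complex I shows where the members stood between the ages. Of the 83 cytosolic ribosomal protein genes tested, 72 rose and 0 fell by edgeR's test, and none fell at an unadjusted p under 0.05 or by DESeq2 or limma-voom, with a median log2 fold change of 0.42, led by *RpL35* (0.69) and *RpS27* (0.64). Of the 32 nuclear genes of complex I, the entry enzyme of the respiratory chain, 30 fell by edgeR's test and by limma-voom and 25 by DESeq2, none rose by any of them or at an unadjusted p under 0.05, and the median was -0.41. *ND-B18* (-0.73) and *ND-42* (-0.64) fell the most. The median standard error was 0.088 for complex I and 0.089 for the cytosolic list, against 0.17 for the members. The counts of calls are therefore not at like precision. The members had 0 that rose and 3 that fell, at a median of -0.08. Their 95% intervals lay wholly below the cytosolic median for 50 of 71 members and held it for 21. They lay wholly above the complex I median for 33 members, held it for 37 and lay below it for 1, *mRpS9*. For the members whose intervals hold either value, these data do not separate the member's change from that of the other list.

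**Figure D4:**
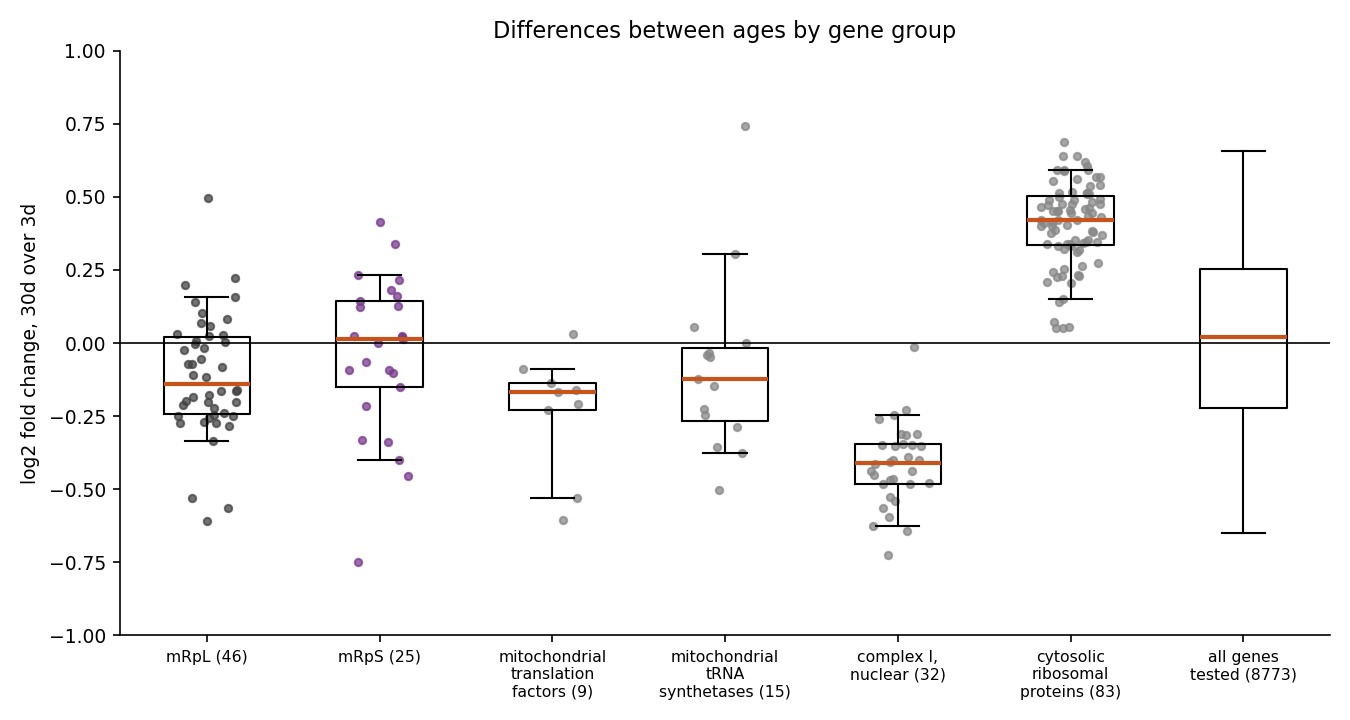
Log2 fold change, 30d over 3d, of each tested gene (points) by group, with the median (orange line), the quartiles (box) and the 5th to 95th percentile (whiskers). The number of genes is given in brackets, and all genes tested are shown by box and whiskers alone. The mRpL and mRpS genes lie around 0, the complex I genes below it at a median of -0.41 and the cytosolic ribosomal protein genes above it at a median of 0.42.

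Levels differed as well. Per kb of exon the median was 18.8 CPM for the mitochondrial ribosomal proteins, 97.4 CPM for complex I and 613 CPM for the cytosolic ribosomal proteins. For each 100 CPM of cytosolic ribosomal protein mRNA there were 2.11, 2.12 and 2.01 CPM of mitochondrial ribosomal protein mRNA in the 30d samples, against 3.27, 2.83 and 2.79 CPM in the 3d samples. For each 100 CPM of complex I mRNA there were 33.5, 34.2 and 32.8 CPM at 30d, against 26.0, 28.8 and 27.9 CPM at 3d. The ages did not overlap in either ratio, and both are given as descriptions, without a test. These ratios do not depend on the scaling of the libraries.

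**Figure D5:**
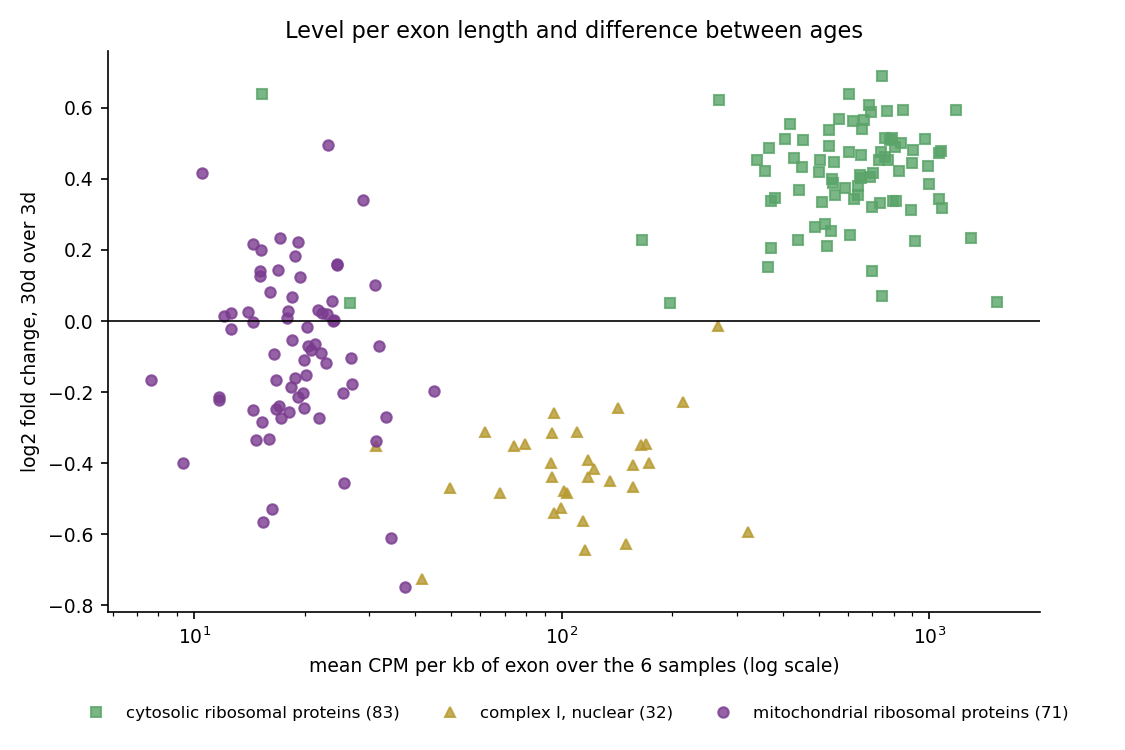
Mean level per kb of exon over the 6 samples (CPM per kb, log scale) against the log2 fold change, 30d over 3d, of each tested gene, for the mitochondrial ribosomal proteins (circles), the cytosolic ribosomal proteins (squares) and complex I (triangles). The members lie at the low end of the levels shown for these lists, at a median of 18.8 CPM per kb. Their median difference between the ages lies between those of the other lists, and single members overlap both lists.

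Most genes that stand for the content of mitochondria fell. Of the 11 genes of mitochondrial membranes and content 8 fell and 0 rose by edgeR's test, as by limma-voom, while DESeq2 had 7 lower and 0 higher and 1 was higher at an unadjusted p under 0.05. The median was -0.29. The largest falls were those of *sesB*, the ADP/ATP carrier, with a mean of 1226 ± 27.1 CPM at 30d and 2521 ± 454 CPM at 3d (SD, n = 3 each, log2 fold change -1.04, edgeR adjusted p = 6.06e-05), and of *kdn*, citrate synthase, with 416 ± 16.6 CPM at 30d and 829 ± 169 CPM at 3d (-0.99, adjusted p = 9.43e-05). Both were highest in 3d replicate 1, the sample with the highest sum of muscle markers. The part of muscle content in these differences was not tested.

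The members' short exons bear on the size of the median. Over all genes tested the log2 fold change moved with exon length, with a median of 0.12 in the shortest 1740 genes and -0.13 in the longest 1740. When this trend was removed, the median of all genes was 0.01, 11 members had an unadjusted p under 0.05 and all of these were lower, and 5 members were called lower: *mRpS9*, *mRpL55*, *mRpS11*, *mRpL18* (-0.63, adjusted p = 0.041) and *mRpS25* (-0.44, adjusted p = 0.029), again by edgeR's test. With library size alone the median of all genes was 0.10.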

How the data were processed

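RNA from fly heads was measured in 3 samples at 30d and 3 at 3d. The authors selected polyadenylated RNA, sequenced single-end reads, aligned them to dm6 with STAR and counted reads with HTSeq in its strict intersection mode, without regard to strand. The annotation release is not given in the sources used here. The deposited values are raw counts per gene, and every column was used. The Ensembl annotation on dm6 coordinates held 17356 of the 17492 identifiers and gave symbols, positions and exon overlaps.

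Genes were kept by the default filter of edgeR 4.0.16 by age (minimum count 10, 8773 genes). In R 4.3.3, libraries were scaled by TMM, and edgeR's quasi-likelihood test (two-sided) was used for 30d over 3d. P-values were adjusted over all genes kept (Benjamini-Hochberg), and the threshold was 0.05. Alternatives used DESeq2 1.42.0, limma 3.58.1, other scalings, filters, a removed length trend, the replicate number as a block, and each sample left out. Scripts were tested on simulated data. Reads without molecular identifiers are not independent molecules.

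Members were named by a rule: all called members up to 10 in each direction, the 3 highest and 3 lowest per kb of exon, those not tested, those with over 20% of exon bases shared, and *mRpL12*, *mRpL10*, *mRpS29*, *mRpS18A*, *mRpS18B*, *mRpS18C*, *mRpL44* and *mRpS30*. From the other lists all tested translation factors, transcription genes, *tko* and *bonsai* were named, and the 2 largest called changes elsewhere. The members and lists were chosen with earlier results of these data known. Genes outside the rule were named after their values were seen.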

Additional observations from a re-analysis of the deposited data

How the results depend on the processing

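Of the 3 members called, *mRpS9* was called under all 9 alternative fits and in all 6 that left out a sample, *mRpL55* under 8 and 3, and *mRpS11* under 7 and 1. The count of members called lower was 1 with DESeq2's Wald test, 5 with the length trend removed, 7 with it removed and the replicate block, and 1 to 3 when a sample was left out. The count of members called higher was 1 with library size alone and 0 to 1 when a sample was left out. The members' median log2 fold change was below 0 throughout: -0.0040 with library size alone, -0.18 with the length trend removed, -0.19 with this and the replicate block, and -0.11 to -0.05 without single samples. Genes called over the whole table numbered 1801 to 2975 under the alternative fits and 1879 to 2596 without single samples, against 2669. The replicate block alone called 3 members lower and 0 higher, with a median of -0.09, the same 3 members. Same-numbered samples of the ages correlated at 0.14, 0.02 and 0.05 in their deviations from the age means, so the numbers were not taken to pair them. A correction for GC content, with or without the block, was left out, as it needs the genome sequence.

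With 3 samples of each age the intervals of single members had a median half-width of 0.37 on the log2 scale, 0.22 for the narrowest and 0.69 for the widest, and a member that missed the threshold is not shown to be unchanged. The unstranded counts cannot assign a read to a strand. A read lying wholly on exons of a member and of a gene on the opposite strand was counted for neither. Such members were therefore measured from the rest of their exon bases. No exact permutation test of 3 against 3 can give a two-sided p under 0.1.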
